A study of Mus musculus with 38 samples.

Results

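The pluripotency genes followed here are Nanog, Pou5f1, Sox2, Esrrb, Zfp42, Klf4, Utf1, L1td1, Tdh and Tcl1, which were taken by gene name from the raw count tables of sorted mouse fetal male germ cells (gonocytes). All 10 were found among the 27633 genes of the Inhba tables and among the 9798 genes of the Inha table. Gonocytes were sorted from testes of 19 animals on a mixed C57/Bl6/129svJ background that carried an Oct4-Gfp reporter, with both testes of an embryo as 1 replicate. The groups were Inhba KO (n = 4) and Inhba WT (n = 4) at E15.5, Inhba KO (n = 4) and Inhba WT (n = 3) at E13.5, and Inha KO (n = 2) and Inha WT littermates (n = 2) at E13.5. Inhba encodes the activin A subunit, so Inhba KO testes lack activin A, and Inha encodes the inhibin alpha subunit, whose loss removes an inhibitor of activin. Both alleles are global, so that germ cells and somatic cells of a KO embryo carry the same deletion. For 5 animals, which are all 4 E15.5 Inhba WT animals and E13.5 Inhba KO replicate 1, the genotype field of the records goes against the sample title, and the title was followed because the count columns match it. Without all 4 of those WT animals no E15.5 WT group is left, so results on it cannot be given without them.

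The levels of Inhba cannot check these genotypes in gonocytes, since Inhba had 2 to 27 counts in E15.5 KO animals, against 10 to 25 in E15.5 WT animals, and 6 to 12 counts in E13.5 KO animals, against 1 to 4 in E13.5 WT animals. KO and WT are therefore as labelled. The study genotyped each embryo from tail tissue and checked the loss of Inhba in somatic cells, which were not analysed here. For E13.5 KO replicate 1 its methods, which drop a sample from the WT group, go with the title, while a figure legend gives KO as the smaller group. Ddx4, a germ cell RNA helicase, had 452 to 887 cpm in the Inhba animals and 319.8 to 629 cpm in the Inha animals. The Sertoli cell factor Sox9 reached at most 7.97 cpm in Inhba animals and 15.3 cpm in Inha animals. Total counts were 8466087 to 40600907 in E15.5 KO, 18918003 to 37220879 in E15.5 WT, 17239105 to 19736434 in E13.5 KO and 18931071 to 19791975 in E13.5 WT animals, and 6320539 to 11917167 in the genes kept in the Inha table. In sorted pools of cells, fewer cells with a transcript and less transcript per cell cannot be told apart.

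Pou5f1, Sox2 and Nanog encode the transcription factors at the centre of the network that keeps embryonic stem cells pluripotent, and Esrrb, Klf4, Zfp42 and Utf1 encode chromatin and DNA-binding factors attached to that network. Fetal germ cells keep much of this network after they reach the gonad. Male germ cells then stop dividing and turn to a male programme that includes the piRNA pathway and de novo DNA methylation. In that window the network is known to be lost, and signalling by Nodal and activin through SMAD2 and SMAD3 is known to act on germ cells of this stage.

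POU factors such as the Pou5f1 protein bind an octamer, and SOX factors such as the Sox2 protein bind a short core that often lies next to it. Windows of 300 bases (250 before and 50 after a RefSeq start, build GRCm38.p6) were searched on both strands for the octamer core ATGCAAA and the SOX core CATTGT. Windows were given for 9 of the 10 genes, all but Tdh. The octamer core was in a window of 3 of these 9 genes, namely Nanog, Sox2 and Zfp42, where 5.25% of all 26994 genes had it in any window, and in 4 of their 12 windows, where 4.63% of all 32817 windows had it. The SOX core was in a window of 3 genes, namely Nanog, Esrrb and Pou5f1, where 14.3% of all genes had it, and in 4 of the 12 windows, where 12.6% of all windows had it. For both cores, overlapping windows of Nanog hold the same site, so that site is counted more than once among the 4 windows. The stretches around the octamer core are printed because these genes, whose proteins belong to the network or are its long-used markers, hold the letters its own factors bind. Each is printed on the strand of its gene, and capitals mark the octamer core and, in Nanog, the SOX core beside it, which in Nanog and Zfp42 lie on the opposite strand and so read as their reverse complements. The Nanog stretch is chr6:122707374-122707460 on the plus strand, the Sox2 stretch chr3:34649856-34649942 on the plus strand, which is upstream of the GENCODE start, and the Zfp42 stretch chr8:43307148-43307234 on the minus strand.
Nanog: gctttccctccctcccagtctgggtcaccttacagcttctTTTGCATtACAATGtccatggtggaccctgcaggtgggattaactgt
Sox2: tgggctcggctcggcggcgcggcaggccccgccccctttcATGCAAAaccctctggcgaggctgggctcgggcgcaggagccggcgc
Zfp42: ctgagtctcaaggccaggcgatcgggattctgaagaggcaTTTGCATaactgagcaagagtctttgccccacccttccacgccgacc
In Nanog the octamer core starts 75 bases before 1 of its RefSeq starts, with the SOX core at 67 bases before it, so that a single base parts them. In Sox2 the core starts 99 bases and in Zfp42 185 bases before the start. A match describes the letters only, and binding was not measured.

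At E13.5 none of these genes was near the detection limit, and none fell to it by E15.5. The lowest level of any of the 10 in an Inhba animal was 3.18 cpm (Tdh in E15.5 WT replicate 3), above the 2.4 cpm used as the limit, and every gene had at least 52 counts in every Inhba animal. By that limit the name "switched off" therefore describes none of them in these animals. Over the whole group, L1td1, Tdh, Nanog, Sox2, Esrrb and Tcl1 fell steeply with age, Zfp42, Utf1 and Pou5f1 changed less, and Klf4 moved the other way.

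Levels between genes were compared per kilobase of exon (GENCODE vM21, GRCm38). At E15.5 Utf1 had the highest mean per length in both genotypes, with 127 cpm per kb in KO and 128 cpm per kb in WT gonocytes, and Pou5f1 was next with 48.1 and 43.4 cpm per kb in KO and WT. The ranges of these 2 genes did not overlap each other or those of any gene below them. In E15.5 WT gonocytes Klf4 stood at position 3 with 13.97 cpm per kb. It was followed by Zfp42, Sox2, Tcl1, Nanog, L1td1, Tdh and Esrrb between 8.19 and 1.84 cpm per kb, and in this run of genes each overlapped its neighbour. In E13.5 WT gonocytes the order was Utf1 (179 cpm per kb), L1td1 (145), Pou5f1 (58.5), Sox2 (40.6), Tcl1 (27.8), Tdh (27.4), Nanog (25.01), Zfp42 (14.9), Esrrb (10.8) and Klf4 (3.28). Here the neighbours that overlapped were Utf1 and L1td1, Tcl1 and Tdh, Tdh and Nanog, and Zfp42 and Esrrb. In WT, L1td1 thus stood at position 8 of the 10 genes at E15.5, against position 2 at E13.5, and Klf4 at position 3, against position 10.

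**Figure D1:**
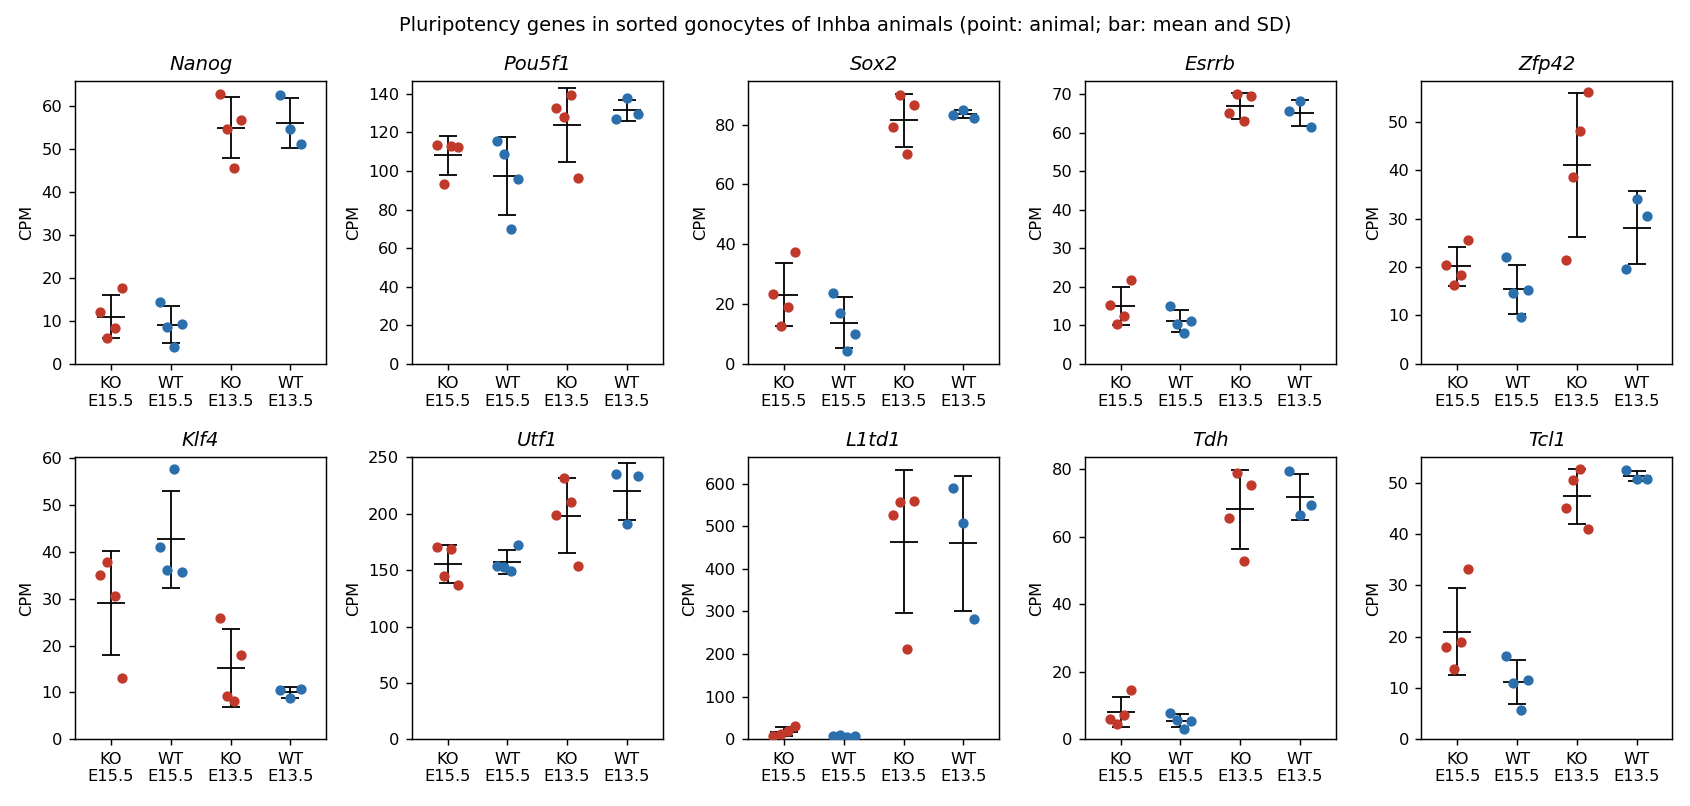
Levels (cpm, y axis of each panel, from 0) of the 10 genes in single Inhba animals (points, KO red, WT blue), with the mean and SD of each group as bars. L1td1, Tdh, Nanog, Sox2, Esrrb and Tcl1 sit far lower at E15.5. The ages overlap for Pou5f1, Zfp42, Utf1 and Klf4 in KO, and only for Zfp42 in WT. Klf4 is higher at E15.5 in every WT animal.

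The age comparison asked how the genes differed between E15.5 and E13.5 within a genotype. Tests were edgeR quasi-likelihood tests with Benjamini-Hochberg adjustment over all genes tested, and a gene was called when the adjusted p was under 0.05 and the change above 1.5-fold. In KO gonocytes 7 of the 10 genes fell and none rose, where 25.2% of 14653 genes fell and 29.1% rose. In WT gonocytes 9 of the 10 fell and 1 rose, where 28.1% of 15376 genes fell and 34.0% rose. The median log2 change of the 10 genes was -1.59 in KO, where that of all genes was 0.02, and -2.59 in WT, where that of all genes was 0.05. The genes were known for falling in these cells when they were chosen, so these shares are given as a description.

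L1td1 encodes an RNA-binding protein derived from a LINE-1 element that is found in pluripotent and germ cells (ENSMUSG00000087166, chromosome 4 of GRCm38 from 98726734 to 98738480, plus strand). It had 8.62, 12.1, 19.6 and 31.3 cpm in E15.5 KO gonocytes, against 527, 556, 213 and 558 cpm in E13.5 KO gonocytes. In WT it had 8.46, 11.3, 6.55 and 7.66 cpm at E15.5, against 590.1, 506 and 283 cpm at E13.5. The ages were far apart in both genotypes, although the E13.5 animals themselves were spread widely. The fitted fall was the third largest of all 14653 genes tested in KO (log2 change -4.79, SE 0.43, adjusted p = 2.46e-07) and the second largest of all 15376 genes in WT (log2 change -5.98, SE 0.47, adjusted p = 7.24e-08). In WT this was a 63.0-fold lower level.

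Tdh encodes threonine dehydrogenase, the mitochondrial enzyme on which mouse embryonic stem cells depend for their threonine catabolism (ENSMUSG00000021953, chromosome 14 from 63492347 to 63509092, minus strand). Its levels were 6.14, 4.46, 7.20 and 14.5 cpm in E15.5 KO gonocytes, against 65.5, 78.9, 52.6 and 75.1 cpm in E13.5 KO gonocytes. In WT they were 7.74, 5.68, 3.18 and 5.55 cpm at E15.5, against 79.2, 66.5 and 69.2 cpm at E13.5. No animal of one age reached the range of the other. The log2 change was -3.17 (SE 0.33, adjusted p = 8.96e-07) in KO and -3.90 (SE 0.35, adjusted p = 2.22e-07) in WT. Tdh shares 66 exon bases with Gm17232 on the opposite strand, which had 6 to 41 counts in Inhba animals, and the counting is not stated to use strand.

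Nanog, the homeobox factor of naive pluripotency (ENSMUSG00000012396, chromosome 6 from 122707489 to 122714633, plus strand), is the gene whose start region holds the joined octamer and SOX cores printed above. It had 12.05, 6.06, 8.25 and 17.6 cpm in E15.5 KO gonocytes, against 62.9, 54.6, 45.6 and 56.8 cpm in E13.5 KO gonocytes. WT gonocytes had 14.5, 8.61, 3.88 and 9.36 cpm at E15.5, against 62.5, 54.6 and 51.1 cpm at E13.5. The highest E15.5 animal stayed well below the lowest E13.5 animal in each genotype. Nanog fell 5.39-fold in KO (log2 change -2.43, SE 0.35, adjusted p = 1.9e-05) and 7.12-fold in WT (log2 change -2.83, SE 0.37, adjusted p = 6.05e-06). GENCODE also lists pseudogenes of Nanog and Zfp42, and how reads shared with such copies were handled is not stated.

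Sox2 (ENSMUSG00000074637, chromosome 3 from 34650405 to 34652461, plus strand), the HMG-box partner of Pou5f1, spread more between animals at E15.5 than at E13.5. E15.5 KO gonocytes had 23.3, 12.5, 18.95 and 37.4 cpm, against 79.2, 89.9, 70.0 and 86.7 cpm in E13.5 KO gonocytes. E15.5 WT gonocytes had 23.6, 17.1, 4.30 and 9.99 cpm, against 83.3, 84.9 and 82.2 cpm in E13.5 WT gonocytes. The ages did not overlap in either genotype, while the E15.5 WT animals differed among themselves over a wide range. The log2 change was -1.92 (SE 0.39, adjusted p = 0.000468) in KO and -2.80 (SE 0.42, adjusted p = 2.58e-05) in WT. Sox2 lies within Sox2ot on the same strand and shares no annotated exon bases with it.

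Esrrb, an orphan nuclear receptor of the naive network (ENSMUSG00000021255, chromosome 12 from 86361117 to 86521628, plus strand), had 15.4, 10.4, 12.4 and 21.9 cpm in E15.5 KO gonocytes, against 65.2, 70.0, 63.0 and 69.6 cpm in E13.5 KO gonocytes. In WT it had 15.05, 10.4, 7.90 and 11.2 cpm at E15.5, against 65.7, 68.2 and 61.6 cpm at E13.5. The E13.5 animals lay close together, and the E15.5 animals were all far below them. The log2 change was -2.26 (SE 0.22, adjusted p = 5.6e-07) in KO and -2.76 (SE 0.24, adjusted p = 1.57e-07) in WT.

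Tcl1, a co-activator of the AKT kinase (ENSMUSG00000041359, chromosome 12 from 105216750 to 105222793, minus strand), had 17.95, 13.8, 18.95 and 33.2 cpm in E15.5 KO gonocytes, against 45.1, 50.5, 52.7 and 41.0 cpm in E13.5 KO gonocytes. In WT it had 16.2, 10.9, 5.70 and 11.6 cpm at E15.5, against 52.5, 50.8 and 50.8 cpm at E13.5. The ages did not overlap, and the gap was narrower in KO than in WT. Tcl1 fell 2.39-fold in KO (log2 change -1.26, SE 0.27, adjusted p = 0.000755) and 5.35-fold in WT (log2 change -2.42, SE 0.30, adjusted p = 3.74e-06). The difference between these 2 changes is tested with the other genes in the interaction of genotype with age.

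Zfp42, the zinc finger protein REX1 (ENSMUSG00000051176, chromosome 8 from 43295063 to 43306980, minus strand), fell by less. It had 20.3, 16.3, 18.3 and 25.6 cpm in E15.5 KO gonocytes, against 21.5, 38.6, 48.1 and 56.1 cpm in E13.5 KO gonocytes. In WT it had 22.03, 14.7, 9.68 and 15.2 cpm at E15.5, against 19.6, 34.1 and 30.5 cpm at E13.5. In each genotype the lowest E13.5 animal overlapped the E15.5 range. The log2 change was -1.13 (SE 0.29, adjusted p = 0.00292) in KO and -1.08 (SE 0.31, adjusted p = 0.00541) in WT.

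Utf1, a chromatin-bound factor that stays on in spermatogonial stem cells of adult rodents (ENSMUSG00000047751, chromosome 7 from 139943789 to 139945112, plus strand), remained the most abundant of the 10 genes per length. Its levels were 170.4, 145, 169 and 137 cpm in E15.5 KO gonocytes, against 199, 231, 210.2 and 153 cpm in E13.5 KO gonocytes. In WT they were 154, 153, 149.5 and 173 cpm at E15.5, against 235, 191 and 234 cpm at E13.5. The ages were apart in WT and overlapped in KO. The log2 change was -0.71 (SE 0.12, adjusted p = 8.76e-05) in WT, where Utf1 was called, and -0.45 (SE 0.11, adjusted p = 0.00259) in KO, where the change was under 1.5-fold.

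Pou5f1, which encodes OCT4 (ENSMUSG00000024406, chromosome 17 from 35506018 to 35510772, plus strand), was also the gene behind the sort. The Oct4-Gfp reporter is driven by Pou5f1 regulatory sequence, so cells that had lost this activity may not have entered the gate. The part of the gate in these levels was not tested. Pou5f1 had 114, 93.3, 113 and 112 cpm in E15.5 KO gonocytes, against 132, 128, 139 and 96.2 cpm in E13.5 KO gonocytes. In WT it had 116, 109, 69.8 and 95.6 cpm at E15.5, against 127, 138 and 129.8 cpm at E13.5. The ages overlapped in KO and not in WT. The log2 change was -0.65 (SE 0.15, adjusted p = 0.00136) in WT, where it was called, and -0.29 (SE 0.14, adjusted p = 0.0826) in KO, where it was not.

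The calls of Pou5f1 and Utf1 in WT depended on the scaling. With library totals in place of TMM factors, an alternative chosen after seeing the data, the median log2 change of all genes between the ages moved to 0.27 in WT and to 0.11 in KO. On that scale Pou5f1 changed by -0.43 and Utf1 by -0.48 in WT, both under 1.5-fold. Pou5f1 also missed the fold threshold without E15.5 WT replicate 3, its lowest animal (log2 change -0.48, adjusted p = 0.00325 by edgeR). The direction of these 2 genes stayed negative in both.

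Klf4, the Kruppel-like factor used in reprogramming (ENSMUSG00000003032, chromosome 4 from 55527143 to 55532466, minus strand), was the exception. It had 35.0, 37.9, 30.6 and 13.02 cpm in E15.5 KO gonocytes, against 25.9, 9.17, 8.12 and 18.04 cpm in E13.5 KO gonocytes. In WT it had 41.1, 36.0, 57.7 and 35.6 cpm at E15.5, against 10.5, 8.77 and 10.7 cpm at E13.5. The ages were apart in WT and overlapped in KO, where E15.5 replicate 4 was low and E13.5 replicate 1 was high. Klf4 rose 3.64-fold in WT (log2 change 1.86, SE 0.40, adjusted p = 0.000599), and its log2 change in KO was 0.80 (SE 0.36, adjusted p = 0.0579). The KO change was called without E13.5 KO replicate 1, whose genotype records disagree (log2 change 1.17, adjusted p = 0.00897 by edgeR), and without E15.5 KO replicate 4 (log2 change 1.04, adjusted p = 0.0102). It was also called by DESeq2 (log2 change 0.82, adjusted p = 0.0327) and with library totals (log2 change 0.92, adjusted p = 0.0289 by edgeR).

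Klf4 is also induced as an early response gene in many cell types, so a list of 15 immediate early genes was set beside it. Their summed level was 154.7 to 162 cpm in E15.5 KO, against 162 to 252 cpm in E13.5 KO, and 135 to 320.0 cpm in E15.5 WT, against 126 to 148 cpm in E13.5 WT. In KO 1 of 12 tested rose and 3 fell, and in WT 6 of 13 rose and 2 fell. The Inhba animal with the highest sum at E13.5, KO replicate 1 with 252 cpm, was also the highest for Klf4 at that age and for the 16 summed Sertoli cell markers (137 cpm, against 75.6 to 94.8 cpm in the other E13.5 KO animals). At E15.5 the animals went otherwise. WT replicate 3 had the lowest immediate early sum (135 cpm) and the highest Klf4 level (57.7 cpm). WT replicate 1 had the highest sum (320.0 cpm) with 41.1 cpm of Klf4, while the other WT sums were 135 to 175 cpm. Of the Sertoli markers tested, 7 of 9 fell in KO and none rose, and 2 of 9 fell and 1 rose in WT. Other somatic lists rose in part. Of interstitial mesenchyme markers 4 of 8 rose in KO and 4 of 7 in WT, with none that fell, and of endothelial markers 3 of 5 rose and 2 fell in KO and 4 of 6 rose and 2 fell in WT. The macrophage markers tested rose in KO (1 of 1) and in WT (2 of 2). The part of these lists in the values of Klf4 and of the falling genes was not tested.

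**Figure D2:**
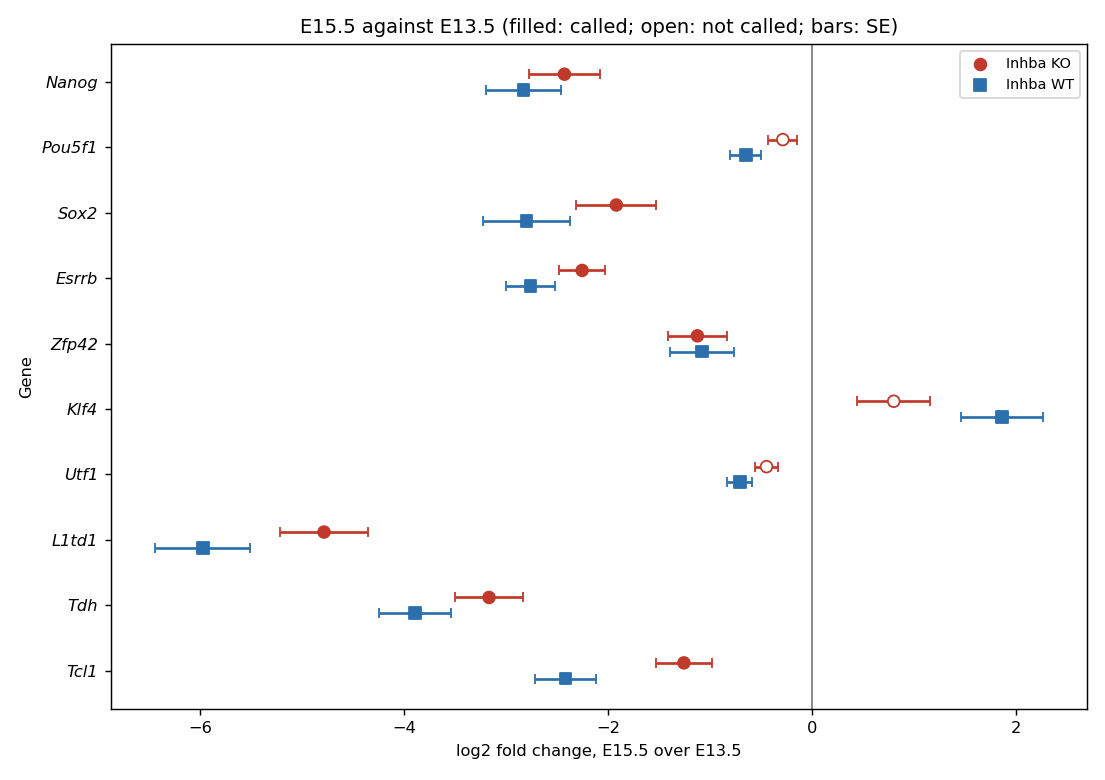
Log2 fold change of each gene with age (x axis, E15.5 over E13.5) in Inhba KO (red circles, upper) and Inhba WT (blue squares, lower), with SE bars; filled symbols passed the adjusted p and fold thresholds. L1td1 lies farthest to the left in both, at -4.79 in KO and -5.98 in WT, and Klf4 is the only gene right of 0.

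Other genes of the network were followed through a list of 30 that holds none of the 10. Of 28 tested in each genotype, 20 fell and 3 rose in KO, and 20 fell and 2 rose in WT, with a median log2 change of -1.81 and -2.09. The 4 with the smallest p were the same in both: Lefty1 and Lefty2, secreted inhibitors of Nodal, Tdgf1, the Nodal co-receptor Cripto, and Klf5, a relative of Klf4. Lefty2 averaged 8.07 ± 4.02 cpm in E15.5 KO (SD, n = 4), against 185 ± 77.5 cpm in E13.5 KO (n = 4), and 4.32 ± 1.499 cpm in E15.5 WT (n = 4), against 193 ± 49.9 cpm in E13.5 WT (n = 3). Lefty1 changed by -4.51 in KO and -5.91 in WT on the log2 scale, Tdgf1 by -3.65 and -4.15, and Klf5 by -2.53 and -3.17. The genes that rose, named after their values were seen, were Dppa4 and Dnmt3b in both genotypes and Tfcp2l1 in KO. Dppa4, a chromatin factor of early embryos and germ cells, averaged 289 ± 29.3 cpm in E15.5 KO, against 119 ± 26.3 cpm in E13.5 KO, and 288 ± 38.0 cpm in E15.5 WT, against 99.0 ± 6.37 cpm in E13.5 WT (SD, n as above). Klf4 was therefore not the only gene linked to pluripotency that rose with age.

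The male differentiation list served as the counterpart. All 10 of its genes rose in KO and all 10 in WT, with a median log2 change of 3.06 and 2.99. The 4 with the smallest p in both were Mov10l1, Tdrd9, Piwil4 and Mael, which act in the piRNA pathway that silences transposons in male germ cells. Piwil4 averaged 414 ± 134 cpm in E15.5 KO, against 11.4 ± 9.49 cpm in E13.5 KO, and 477 ± 93.9 cpm in E15.5 WT, against 9.42 ± 0.951 cpm in E13.5 WT (SD, n = 4, 4, 4 and 3).

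The Inhba comparison at E15.5 asked whether these genes differed in gonocytes without activin A. None of the 10 was called, where 1 of 15201 genes was (0.00658%), with 1588 genes at an unadjusted p under 0.05, 25 called by DESeq2 and 1 by limma-voom. The log2 difference was positive in 9 of the 10 genes, with a median of 0.47, where the median of all genes was -0.01; with library totals Utf1 turned to -0.0177. The widest differences were those of L1td1 (1.17, SE 0.40, adjusted p = 0.47 by edgeR) and Tcl1 (0.98, SE 0.28, adjusted p = 0.47 by edgeR). Sox2 differed by 0.79 (SE 0.39), Tdh by 0.61 (SE 0.33), Esrrb by 0.49 (SE 0.23), Zfp42 by 0.44 (SE 0.29), Nanog by 0.32 (SE 0.35), Pou5f1 by 0.21 (SE 0.15) and Utf1 by 0.04 (SE 0.11), with adjusted p between 0.476 and 0.891 by edgeR. Klf4 was the only negative gene, at -0.50 (SE 0.35, adjusted p = 0.558 by edgeR). KO and WT animals overlapped for all 10 genes, as the per-animal values above show: the lowest KO animal for L1td1 had 8.62 cpm and the highest WT animal 11.3 cpm.

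Single animals moved the differences at E15.5 in both directions. For all 7 genes that fell in both genotypes (Nanog, Sox2, Esrrb, Zfp42, L1td1, Tdh and Tcl1), KO replicate 4 was among the 2 highest of the 8 animals and WT replicate 3 among the 2 lowest. KO replicate 4 was also the lowest for Klf4, and WT replicate 3 the highest. For male differentiation genes the order turned round: 9 of the 10 had KO replicate 4 among their 2 lowest animals, and 6 of the 10 had WT replicate 3 among their 2 highest. Nanos2, also of this list, ran with the falling genes, with KO replicate 4 the highest animal and WT replicate 3 the lowest. These 2 libraries had similar totals, 21350565 and 21384775 counts. Without KO replicate 4 the log2 difference was 0.72 for L1td1, 0.62 for Tcl1, 0.40 for Sox2 and -0.07 for Nanog, and without WT replicate 3 it was 1.05, 0.75, 0.49 and 0.06. Tdh differed by 0.10 without KO replicate 4 and by 0.40 without WT replicate 3. WT replicate 1 ran against its group, being among the 2 highest animals for 4 of the 7 falling genes and among the 2 lowest for 5 of the 10 male genes. Without it the log2 difference was 1.18 for L1td1, 1.24 for Tcl1, 1.21 for Sox2, 0.84 for Tdh and 0.66 for Nanog, and none was called (adjusted p between 0.0988 and 0.257 by edgeR for the 7 falling genes). The number of all genes at an unadjusted p under 0.05 moved with these animals too, to 694 without KO replicate 4, 609 without WT replicate 3 and 3502 without WT replicate 1.

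Marker sums of other cell types also set these animals apart. The endothelial sum was lowest in KO replicate 4 (56.3 cpm) and highest in WT replicate 3 (127.8 cpm), and the macrophage sum was likewise lowest in KO replicate 4 (7.35 cpm) and highest in WT replicate 3 (28.01 cpm). Both lists thus ran with Klf4 in these 2 animals and against the falling genes. The interstitial mesenchyme sum ran the other way, with 351.8 cpm in KO replicate 4, 235 cpm in WT replicate 3, the lowest of the 8, and 352.2 cpm in WT replicate 1, the highest. Ptch1 alone averaged 248 cpm in E15.5 KO and 203 cpm in E15.5 WT animals. This sum therefore mostly follows Ptch1 and does not describe the other markers of its list. The Sertoli sum was 46.5 cpm in KO replicate 4, the lowest, 68.4 cpm in WT replicate 3 and 97.3 cpm in WT replicate 1, the highest. Dmrt1 alone had 35.0 to 37.2 cpm in the E15.5 KO animals and 25.8 to 48.9 cpm in the E15.5 WT animals. The part of such cells in these levels was not tested.

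**Figure D3:**
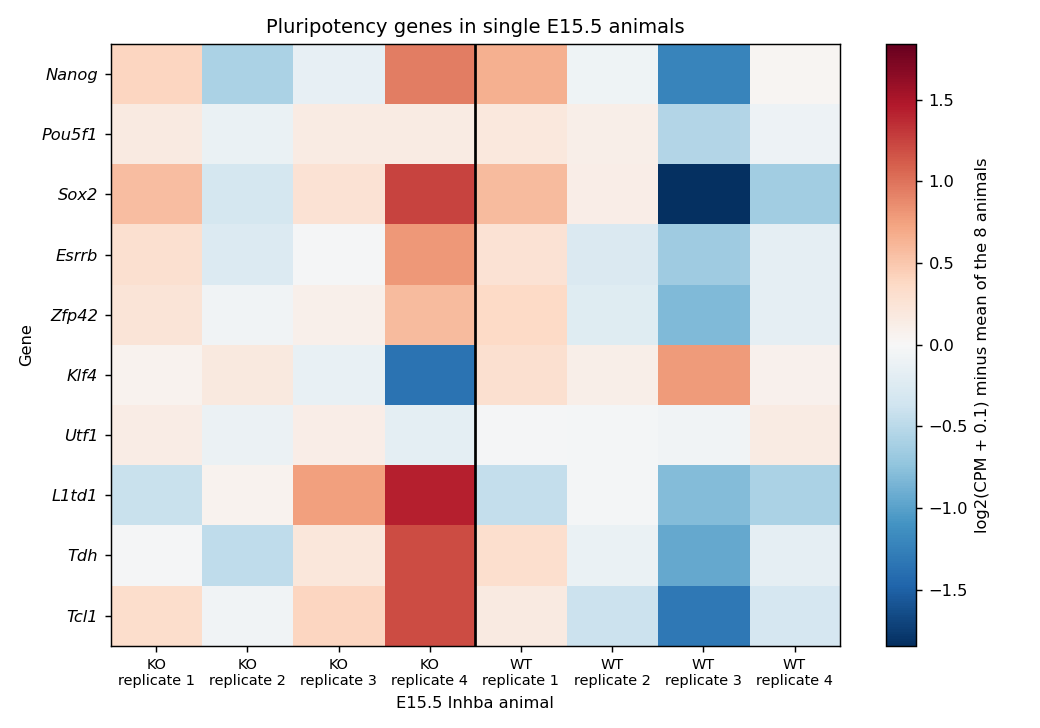
Each gene (rows) in each E15.5 Inhba animal (columns, KO left of the line, WT right), coloured by log2(cpm + 0.1) minus the mean of the 8 animals. KO replicate 4 is high and WT replicate 3 low for most genes, and Klf4 runs opposite to them.

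Across these 8 animals, which share 2 genotypes, the log2 cpm of Nanog had a Pearson r of 0.938 with Esrrb, 0.930 with Zfp42, 0.919 with Sox2, 0.912 with Tdh and 0.879 with Pou5f1, and -0.725 with Klf4. The r of Nanog was 0.861 with Tcl1, and lower with L1td1 (0.516) and Utf1 (0.26). These values describe 8 libraries in which the same animals stand apart. Across the 7 animals at E13.5 the pattern was another one: Nanog had r = 0.903 with L1td1, 0.790 with Tdh, 0.728 with Sox2, 0.709 with Esrrb and 0.699 with Klf4, but -0.144 with Pou5f1 and -0.471 with Zfp42. Among 10337 genes compared over all 15 Inhba animals, those most like Nanog were Pcbp1 (r = 0.996), Ap3b2 (0.995), Eif3m (0.994), Birc5 (0.994) and BC003965 (0.993). Since the 2 ages form separate clusters, the r within E15.5 (n = 8) and within E13.5 (n = 7) is given too, and it was 0.977 and 0.919 for Pcbp1 and 0.962 and 0.942 for Eif3m, and for the other 3 genes 0.949 to 0.977 within E15.5 and 0.822 to 0.860 within E13.5. Those most like Pou5f1 were Tsg101-ps (0.967), Cd2bp2 (0.959), 3110082I17Rik (0.957), Scrn3 (0.951) and Dnajb12 (0.949), with 0.921 to 0.968 within E15.5 and 0.689 to 0.898 within E13.5.

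At E13.5 none of the 10 genes was called between Inhba KO and WT, where 0 of 12730 genes were (0%), with 257 genes at an unadjusted p under 0.05, 8 called by DESeq2 and 1 by limma-voom. The log2 differences of 8 of the genes lay between -0.16 (Utf1, SE 0.12) and 0.04 (Esrrb, SE 0.21). The other 2 were Zfp42 at 0.55 (SE 0.30, adjusted p = 1 by edgeR) and Klf4 at 0.63 (SE 0.41, adjusted p = 1 by edgeR). L1td1 showed how wide the spread was at this age. KO replicate 3 had 213 cpm where the other KO animals had 527 to 558 cpm, and WT replicate 3 had 283 cpm where the other WT animals had 506 and 590.1 cpm. Its log2 difference of 0.03 (SE 0.39) leaves room for a change in either direction, and its sign turned with limma-voom (-0.0314). KO replicate 3 also had the lowest levels of Nanog, Sox2, Tdh and Klf4 among the E13.5 Inhba animals. It had the highest sum of male differentiation genes (988 cpm, against 497 to 583 cpm in the other KO animals). Its interstitial mesenchyme sum was also the highest (318 cpm, against 199 to 250.4 cpm). Most of that sum was Ptch1, which had 180 to 280 cpm in the E13.5 KO animals. Without KO replicate 3 the difference of L1td1 was 0.29.

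No marker of the other lists was called at this age. The log2 difference was positive for 8 of 9 Sertoli markers (median 1.03), 7 of 7 interstitial mesenchyme markers (1.64) and 10 of 11 immediate early genes (0.78, with Fos at 1.79 and Zfp36 at 1.02), and for 2 of 4 endothelial markers (-0.01). It was also positive for 2 of 2 Leydig markers (1.78), 2 of 2 erythroid markers (3.87) and 1 of 1 macrophage marker (0.75), all at low levels. The erythroid sum was 7.03 to 12.6 cpm in KO, against 3.17 to 4.10 cpm in WT, and the Leydig sum 8.35 to 12.3 cpm, against 2.59 to 5.21 cpm. The part of these lists in the values of Zfp42 and Klf4 was not tested.

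The interaction of genotype with age asked whether the fall differed between KO and WT. None of the 10 genes was called, where 0 of 15830 genes were (0%), with 966 genes at an unadjusted p under 0.05 11 called by DESeq2 and 0 by limma-voom. The interaction was 1.15 for L1td1 (SE 0.55), 1.12 for Tcl1 (SE 0.40), 0.84 for Sox2 (SE 0.56) and -1.11 for Klf4 (SE 0.52), all with adjusted p of 0.772 or more by edgeR. So the calls of Pou5f1, Utf1 and Klf4 in WT and not in KO are not shown to differ between the genotypes. Of the 28 other network genes tested at this step none was called, and Etv5, a target of FGF signalling, had the smallest p among those with a positive interaction (1.06, SE 0.43, adjusted p = 0.772 by edgeR).

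The Inha comparison set 2 KO animals beside their WT littermates, with the pair as a block. Utf1 rose and L1td1 fell, where 0.255% of 9798 genes rose and 0.102% fell, and the other 8 genes were not called. Utf1 had 164.7 and 103.6 cpm in Inha KO gonocytes of pair 1 and pair 2, against 87.5 and 38.0 cpm in their WT littermates. It was higher in KO in both pairs, by 1.88-fold and 2.72-fold. The fitted log2 change was 1.08 (SE 0.21, adjusted p = 0.000192 by edgeR). L1td1 had 454 and 836 cpm in KO gonocytes, against 877 and 1017 cpm in WT littermates. It was lower in KO in both pairs, at 0.518 and 0.822 of the littermate level, so that most of the change lay in pair 1. The fitted log2 change was -0.71 (SE 0.16, adjusted p = 0.00766 by edgeR).

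Both calls rested on the block. Without the littermate pair the log2 change was 1.02 for Utf1 and -0.66 for L1td1, each with adjusted p = 0.997, and 0 of the 9798 genes were called, with 450 at an unadjusted p under 0.05 by edgeR. With the block, 1 residual degree of freedom remained per gene and the spread was borrowed from all genes. Leaving out an animal leaves no spread to test against, so these calls have no replicate check beyond the agreement of the pairs in sign.

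In the remaining genes the size of the difference varied between the pairs. Pou5f1 had 52.7 and 67.9 cpm in KO gonocytes, against 36.9 and 33.9 cpm in WT littermates (log2 change 0.66, SE 0.29, adjusted p = 0.415 by edgeR). Nanog had 89.6 and 132 cpm in KO, against 84.7 and 71.2 cpm in WT, and its per-pair ratio was 1.06 in pair 1 and 1.86 in pair 2. Esrrb had 59.9 and 76.7 cpm in KO, against 51.2 and 42.03 cpm in WT, and Tdh had 40.4 and 35.0 cpm in KO, against 27.2 and 29.6 cpm in WT. These genes were higher in KO in both pairs and did not pass the test. Sox2 had 49.3 and 72.1 cpm in KO, against 45.6 and 57.5 cpm in WT, and Zfp42 had 34.9 and 25.5 cpm in KO, against 36.6 and 31.4 cpm in WT. Sox2 was thus higher and Zfp42 lower in KO in both pairs, and neither was called. Klf4 and Tcl1 changed direction between the pairs, with 14.0 and 32.9 cpm of Klf4 in KO, against 18.8 and 6.71 cpm in WT, and 18.4 and 7.28 cpm of Tcl1 in KO, against 16.1 and 13.1 cpm in WT. KO of pair 2 had the highest Sertoli marker sum (182 cpm over the 8 markers kept, against 97.1 cpm in its WT littermate) and immediate early sum (294 cpm over 8 genes, against 145 cpm). Its endothelial sum was 143.8 cpm over the 2 markers kept, against 72.1 cpm. Most of that sum was Pecam1, which had 104 to 130 cpm in the Inha KO and 64.2 to 104.9 cpm in the Inha WT animals. In pair 1 the immediate early sum was 227 cpm in KO, against 177 cpm in WT, while Klf4 was lower in KO, and the Sertoli sum was 111.6 cpm, against 112.7 cpm. Their part in the Klf4 values was not tested.

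**Figure D4:**
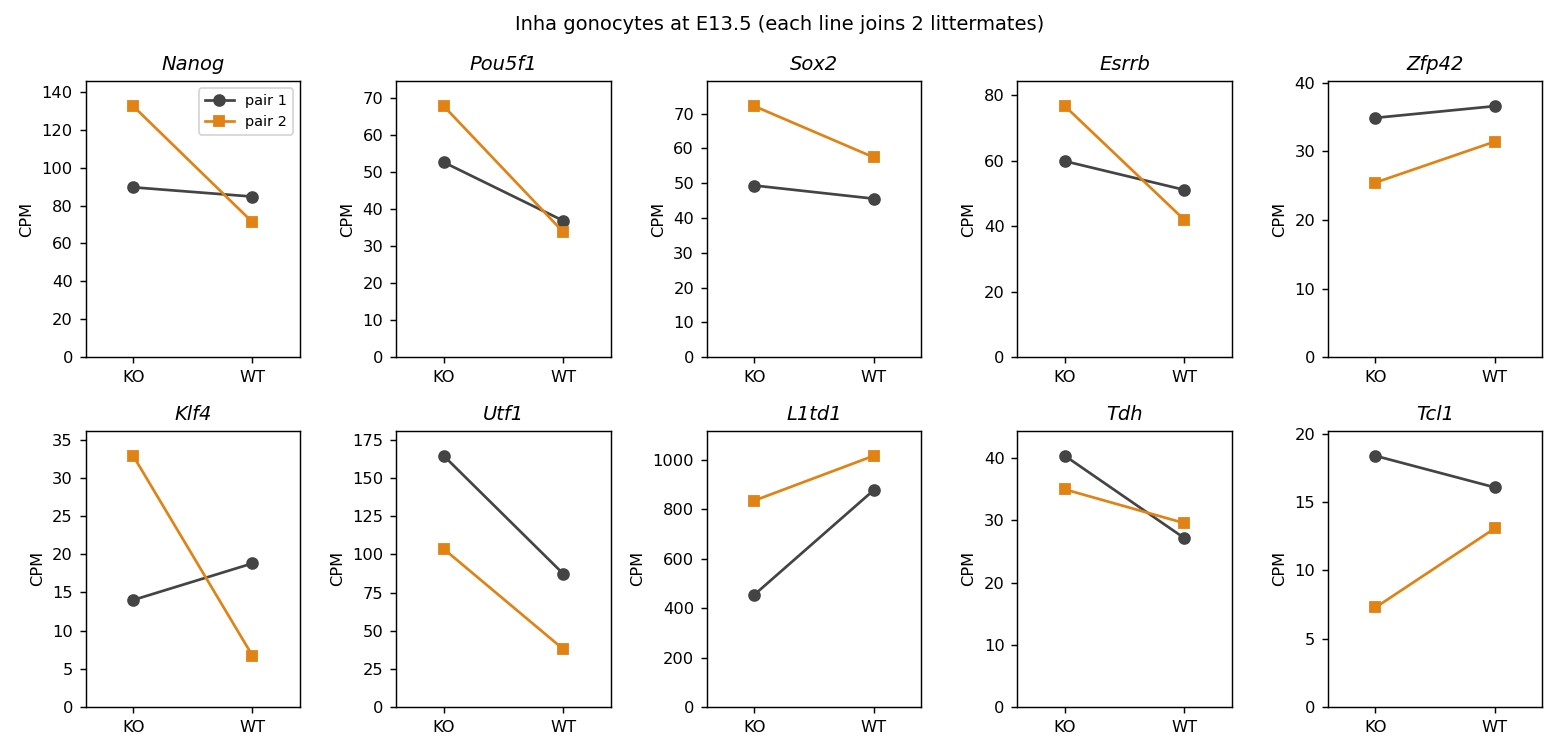
Levels (cpm, y axes from 0) of the 10 genes in Inha KO (left) and WT (right) gonocytes at E13.5, with a line for each littermate pair. Utf1 is higher and L1td1 lower in KO in both pairs, while the lines of Klf4 and Tcl1 go opposite ways in the 2 pairs.

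The Inhba and Inha tables came from different sequencing runs and are only set side by side. At E13.5 the KO log2 differences of Utf1 were 1.08 (Inha) and -0.16 (Inhba), and those of L1td1 were -0.71 and 0.03. The levels themselves also differed between the tables, as in Tcl1, with 7.28 to 18.4 cpm in the Inha animals and 41.0 to 52.7 cpm in the E13.5 Inhba animals, and no test across the tables was made. Of 26 other network genes tested in the Inha table none was called. Dppa5a, a KH-domain protein of pluripotent cells, came closest (log2 change 1.16, SE 0.33, adjusted p = 0.0696 by edgeR), and none of the 8 male differentiation genes tested was called.

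**Figure D5:**
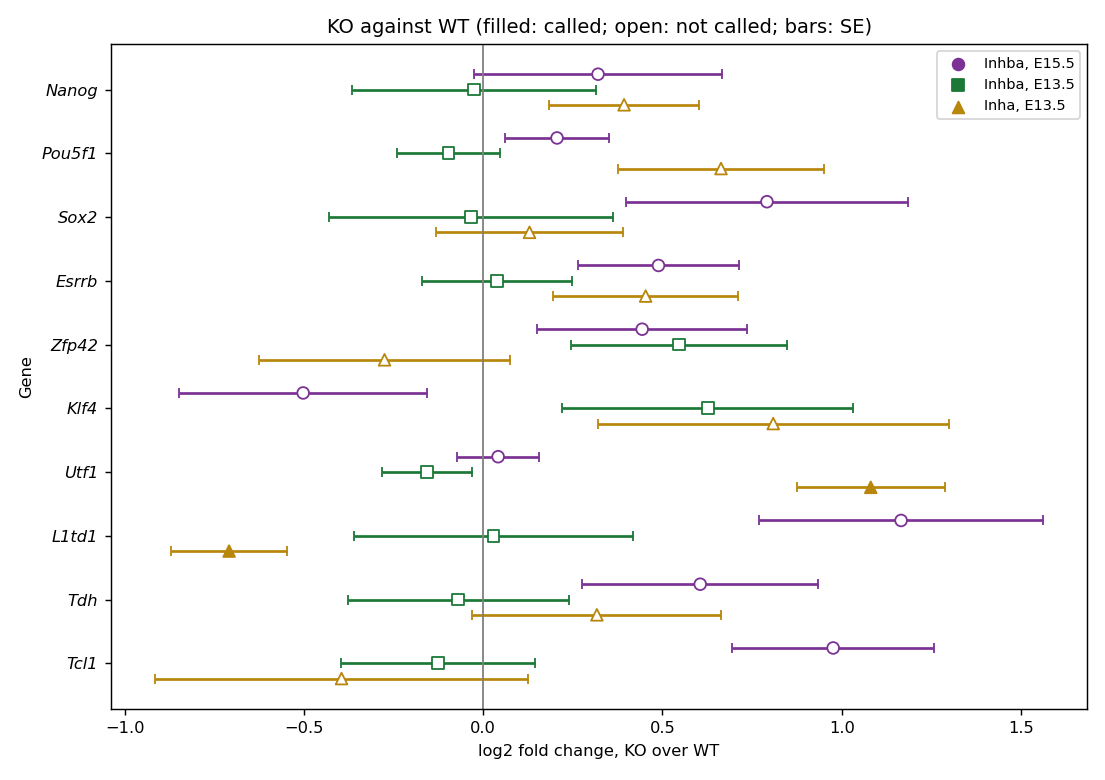
Log2 fold change of each gene between KO and WT (x axis, KO over WT) in Inhba at E15.5 (circles), Inhba at E13.5 (squares) and Inha at E13.5 (triangles), with SE bars; filled symbols passed the thresholds. Only Utf1 (1.08) and L1td1 (-0.71) in Inha are filled, and at E15.5 Klf4 is the single Inhba circle left of 0.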

How the data were processed

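RNA-Seq counts per gene from sorted gonocytes of 19 animals were analysed, with 1 count column for the 2 records of each animal. The sources do not say how these were merged. The deposited raw counts were made by the authors by aligning reads to GRCm38 (Ensembl 84) with STAR 2.5.2b in RNAsik and counting with featureCounts (Subread 1.5.2). Quality tools listed in the submitters' processing notes are FastQC 0.11.5, Picard 2.26.3 and MultiQC 1.0. As deposited, the Inha counts hold no mitochondrial genes and no genes under the count filter, so their totals are not whole depths. The authors excluded an E13.5 Inhba WT gonocyte sample as an outlier, and it was not analysed here.

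CPM were computed here over the column total of each animal, and library size sets their precision (totals are given in the report). Tests used edgeR 4.0.16 in R 4.3.3 (robust quasi-likelihood, TMM), with 1 fit of the 15 Inhba animals over genes above 2.4 cpm in at least 2 animals compared. The 4 Inha animals were fitted apart, over genes with at least 2 cpm in 2 animals, with the littermate pair of the labels as a block. Deviations of littermates from the group averages had a Pearson r of 0.256. With 2 animals per group both pairs give the same r, and the other possible pairing gives that value with the opposite sign. This r therefore cannot check the pairing, which rests on the labels. Calls needed a Benjamini-Hochberg adjusted p under 0.05 and more than 1.5-fold. In the Inhba fit p-values measure the spread between embryos, some of which may share a litter. In the Inha fit they rest mostly on a spread borrowed from all genes, and not on that between the pairs for each gene. Alternatives were DESeq2 1.42.0, limma-voom (limma 3.58.1), median-of-ratios size factors, other filters, no fold threshold, leaving out each animal, fitting only the animals compared and, after seeing the data, library totals. The test code was tested on simulated counts. Figures used matplotlib 3.10.9.

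The members, gene lists and tests were chosen with earlier results of these data known. Named genes are the 10 members, up to 4 genes with the smallest p of the network and male differentiation lists per comparison, the 5 genes most like Nanog and Pou5f1 with a mean above 10 cpm in a group, and the marker checks.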

Additional observations from a re-analysis of the deposited data

Results flagged for a closer look

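Among the groups of 4 animals, 30 gene and group combinations were examined for a single animal far from the rest, and 2 stood out, where chance gives about 1 in 20. E15.5 Inhba KO replicate 2 had 93.3 cpm of Pou5f1, below the other 3 KO animals at 112 to 114 cpm. E13.5 Inhba KO replicate 3 had 213 cpm of L1td1, below the other 3 at 527 to 558 cpm.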

How the results depend on the processing

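Of 470 fold changes of single genes under alternatives that kept all animals, 460 kept their direction and side of the threshold, and so did 430 of 450 with an animal left out. Part of the first share was fixed in advance. Dropping the fold threshold leaves each direction as it was, and in the Inha comparison the other filters kept the same 9798 genes. In the age comparison of KO gonocytes the count of genes that rose, 0 as reported, was 1 (Klf4) with library totals and with DESeq2, and 0 to 1 with an animal left out. Without the littermate block 0 genes rose and 0 fell in the Inha comparison, against 1 and 1 with the pairing. The labels name no littermate pairs for the Inhba groups, so no block was fitted there. Some animal numbers in the titles share their first part, as those of the Inha littermates do. These are E15.5 KO replicates 2 and 3 (1052.2 and 1052.4), and E15.5 KO replicate 1 and WT replicate 2 (855.1 and 855.2). Such embryos may come from 1 litter and so may not be independent, which was not tested. Leaving out an Inha animal was not run, since no residual degrees of freedom remain.

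Differences near 0 changed sign. L1td1 between Inhba KO and WT at E13.5 was -0.0314 with limma-voom and -0.000178 with the edgeR filter, and Utf1 at E15.5 was -0.0177 with library totals. With an animal left out, the E13.5 difference ranged between -0.0929 and 0.0871 for Nanog, -0.0911 and 0.0658 for Sox2, -0.00659 and 0.103 for Esrrb, -0.22 and 0.29 for L1td1, and -0.15 and 0.0667 for Tdh. At E15.5 it ranged between -0.0726 and 0.66 for Nanog and between -0.00623 and 0.0849 for Utf1. The interaction ranged between -0.0274 and 0.70 for Nanog and between -0.29 and 0.15 for Zfp42. The cause of these sign changes was not tested.

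Over all genes, 9401 rose with age in WT and 7131 in KO without the filter on low counts, and 6529 in KO with the edgeR filter, where more genes were tested. DESeq2 called 6 higher and 2 lower at E13.5, 7 and 18 at E15.5, 1 and 10 in the interaction, and 9 and 3 in Inha. In Inha 56 rose with library totals, and 2 rose at E13.5 when only the compared animals were fitted.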
